A study of Mus musculus with 6 samples.

Results

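Organoids grown from the mouse intestine with the vehicle DMSO were compared between day 4 and day 1 of culture, and the data are the RNA of single cells summed per library. All deposited barcodes of the vehicle libraries were used, 15667 of the 29565 barcodes in the series. The vehicle at day 4 had 1 library of 4787 barcodes, taken 96 hours after the first treatment. The vehicle at day 1 had 2 libraries, of 5576 and 5304 barcodes, taken after 24 hours. Libraries 1 and 2 of day 1 were kept apart throughout, and a direction had to hold against each of them. All 3 libraries were made from intestinal organoids of wild-type C57BL/6 mice aged 8 weeks, and the labels mention organoids from 2 mice in duplicate without saying which library came from which mouse. A cell sorter had removed dead cells and debris beforehand. The day-4 values rest on a lone library, so its own spread is unknown and p-values below measure the spread between the day-1 libraries, which may be technical.

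The medium changed between the sampling times. Until day 3 the organoids were kept in ENR (EGF, Noggin and R-spondin) with Wnt3a-conditioned medium, the ROCK inhibitor Y-27632 and the GSK3 inhibitor CHIR99021, and from day 3 in ENR alone, when DMSO was given again. Time in culture, the second dose of vehicle and the withdrawal of these agents therefore cannot be told apart in any value below. In sums over cells, fewer cells of a type and less RNA per cell cannot be told apart either.

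Intestinal organoids grown from dispersed cells first divide as a cyst-like epithelium that resembles repairing or fetal gut. They then form buds, in which Wnt and Notch signals maintain Lgr5-positive stem cells beside Paneth cells, while cells that leave the bud stop dividing and become enterocytes. In mouse gut the repairing state is known for Ly6a (Sca-1), Anxa1 and Clu, under the control of YAP, and the mature enterocyte for fat, sugar and vitamin A handling under HNF4 and CDX factors.

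The libraries held 52627278 UMIs at day 4, against 66406098 and 62823092 UMIs at day 1, and the median cell had 10825 UMIs, against 11573 and 11919.5 (UMIs are single counted RNA molecules). The median mitochondrial share was 3.58% at day 4, against 2.93% and 2.82% at day 1. The day-4 library shared 7 barcodes with each day-1 library, and the day-1 libraries shared 9. The epithelial adhesion protein Epcam had 2626 CPM at day 4, against 2980.4 and 3217 CPM at day 1 (CPM, a gene's UMIs scaled to a fixed library total). Summed over their lists, immune, stromal, endothelial and red blood cell genes each stayed at or below 5.24 CPM in every library. Ptprc, Tyrobp, Col3a1, Dcn, Cdh5 and Hbb-bs were at 0 UMIs in all 3. The day-1 libraries were not alike. Of 12403 tested genes 186 lay at least 2-fold apart between them, led by gut hormone, goblet and absorptive genes that were higher in library 2. Chgb, a granule protein of enteroendocrine cells, had 263 CPM in library 1 and 1007 CPM in library 2, and Apoa1 had 89.1 and 320.3 CPM.

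A gene was called where edgeR's quasi-likelihood test gave a Benjamini-Hochberg adjusted p under 0.05 and where the gene lay at least 1.5-fold apart in the same direction against each day-1 library. At day 4, 1698 genes (13.7% of the 12403 tested) were called higher than at day 1 and 2786 (22.5%) were called lower. Every count of called list members below is to be read against these shares, apart from counts in the chosen cells described at the end. With the fold measured on TMM-scaled CPM, which correct for a few abundant genes taking up reads, the counts were 2156 higher and 2171 lower. The median gene lay at a log2 ratio of -0.15 and -0.16 against the day-1 libraries at equal totals and at -0.01 after TMM scaling, and list medians below are to be read against the first pair. At least 2-fold apart against each day-1 library were 864 genes higher and 1202 genes lower at day 4. In cells without the marker levels of mature cell types, described at the end, 1447 genes were called higher and 904 lower. The cells so chosen were unlike sets at day 4 and day 1.

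**Figure D1:**
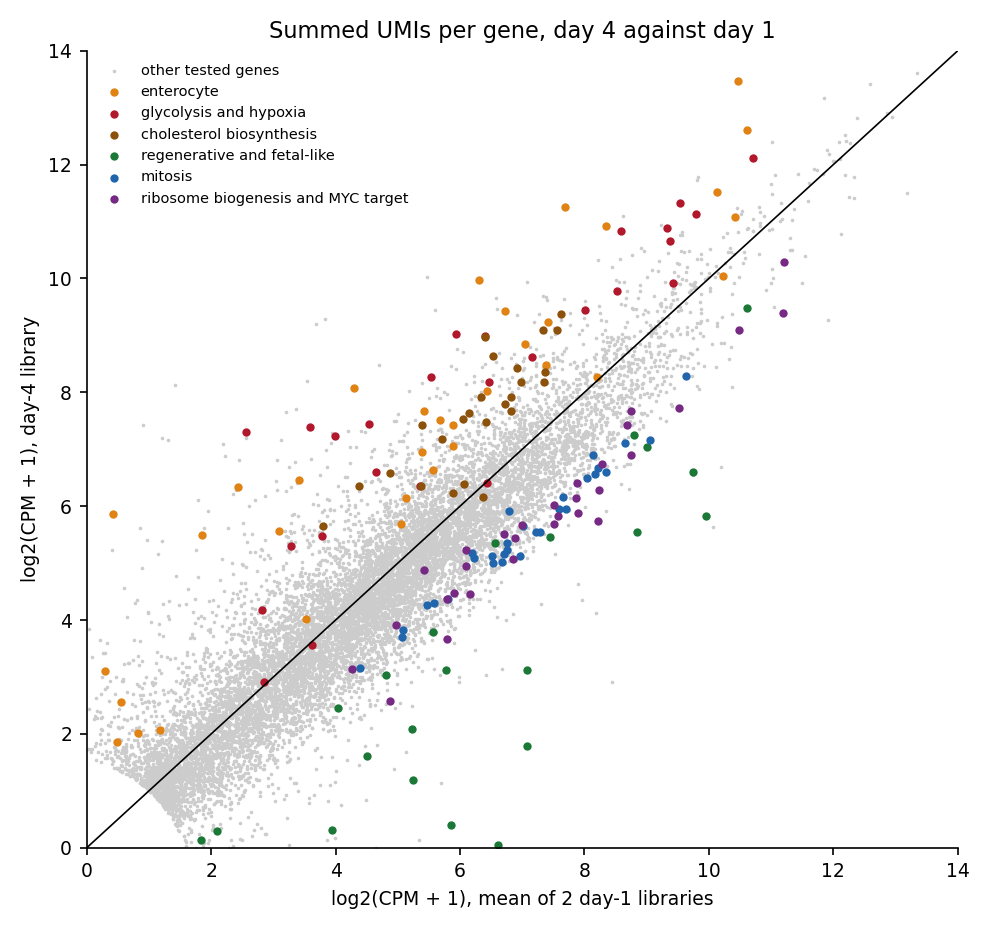
Level of each tested gene in the day-4 library (vertical axis) against the mean of the 2 day-1 libraries (horizontal axis), both as log2(CPM + 1). Coloured points are the members of 6 gene lists, grey points the other genes, and the line marks equal levels. Enterocyte, glycolysis and cholesterol genes lie mostly above the line, and mitosis, ribosome biogenesis and regenerative genes below it.

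Enterocyte genes rose together. Of 35 tested enterocyte genes, 28 were called higher at day 4 and 0 lower (13.7% and 22.5% of all genes), with a median log2 ratio of 2.29 and 1.58 against day-1 libraries 1 and 2. Their summed level was 54769 CPM at day 4, against 9587 and 15873 CPM at day 1. The enzyme and transporter genes of the brush border moved with those of fat handling.

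Sucrase-isomaltase, the brush-border enzyme that splits sucrose (Sis), had 1947 CPM at day 4, against 221 and 425 CPM at day 1. This was 8.79-fold and 4.58-fold higher (edgeR log2 2.76 ± 0.38 SE, adjusted p = 0.00839). Treh, which splits trehalose, had 43.9 CPM at day 4, against 2.14 and 3.12 CPM at day 1. Both genes were above both day-1 libraries, with the low values in library 1. The glucose and galactose carrier Slc5a1 had 689 CPM at day 4, against 82 and 126 CPM at day 1 (adjusted p = 0.0054). The fructose carrier Slc2a5 had 79.9 CPM at day 4, against 2.17 and 6.62 CPM at day 1 (adjusted p = 0.00802). Slc15a1, the peptide carrier, did not pass the test (adjusted p = 0.0652), with 3.06 CPM at day 4, against 0.316 and 1.24 CPM at day 1.

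For fat, 13 of 19 chylomicron and triglyceride genes were called higher and 0 lower. Apoa1, a protein of chylomicrons and HDL, had 2455 CPM at day 4, against 89.1 and 320.3 CPM at day 1, 27.6-fold and 7.67-fold higher (edgeR log2 3.75 ± 0.71 SE, adjusted p = 0.0158). Apoa4 had 1001 CPM at day 4, against 41 and 114 CPM at day 1, and Apoc3, which slows lipoprotein clearance, had 269 CPM at day 4, against 11.8 and 25.5 CPM at day 1. All 3 apolipoproteins stood highest at day 4, and in each the day-1 libraries themselves lay more than 2-fold apart. The fatty acid binding protein Fabp1 had 21358 CPM at day 4, against 2928 and 5238 CPM at day 1, which made it 7.29-fold and 4.08-fold higher. Its relative Fabp2 was at 2167 CPM at day 4, against 1185 and 1560.4 CPM at day 1 and was not called, because its ratio to library 2 fell short of the fold minimum. Mogat2, which rebuilds triglyceride from absorbed fat, had 202 CPM at day 4, against 32.9 and 50.5 CPM at day 1.

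The scaffold of the microvilli moved less. Of 15 microvillus genes 5 were called higher (33.3%) and 2 lower (13.3%), against 13.7% and 22.5% of all genes. Espn, an actin bundler, had 80.5 CPM at day 4, against 9.22 and 21.7 CPM at day 1, and the brush-border motor Myo1a had 305 CPM at day 4, against 103 and 151 CPM at day 1. Vil1, which encodes villin, was at 309 CPM at day 4, against 254 and 332 CPM at day 1 and was not called (adjusted p = 0.371). Ezr, which ties actin to the membrane, fell to 303 CPM at day 4, against 485 and 579.7 CPM at day 1. Of 9 villus tip genes 5 were called higher, and Ada, Egfr, Klf4 and Krt20 were not called.

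Among 19 intestinal transcription factors, 7 were called higher and 1 lower. Hnf4g, which maintains enterocyte genes together with Hnf4a, had 143 CPM at day 4, against 46.1 and 54.2 CPM at day 1 (adjusted p = 0.00524). The lipid-responsive factor Creb3l3 had 349 CPM at day 4, against 53.4 and 108 CPM at day 1, and Elf3 had 347 CPM at day 4, against 157 and 163 CPM at day 1. The largest difference was in Isx, a homeobox repressor of vitamin A uptake genes that retinoic acid induces. Isx had 172 CPM at day 4, against 1.05 and 0.684 CPM at day 1, 163-fold and 251-fold higher (edgeR log2 7.79 ± 0.25 SE, adjusted p = 0.00216), and it was scarce in both day-1 libraries. The genes that Isx is known to repress in mouse gut stood the other way. Scarb1, a receptor for carotenoids and lipoproteins, fell to 7.64 CPM at day 4, against 40.7 and 40.7 CPM at day 1 (adjusted p = 0.00364), and Bco1, which cleaves beta-carotene, fell to 1.39 CPM, against 3.46 and 5.92 CPM. The day-4 library in vitamin A-free medium, which had no part in the test, held 0.0577 CPM of Isx, 78.8 CPM of Scarb1 and 45.4 CPM of Bco1. Whether Isx took part in the fall of Scarb1 and Bco1 from day 1 to day 4 was not tested.

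The upstream bases of 3 enterocyte genes called higher are shown because each holds the letters CAAAGTC of a core HNF4 site, in capitals, read on either strand (GACTTTG on the printed strand). These are the 150 bases before the RefSeq start on GRCm38.p6, in the gene's own direction, at chr9:44673083-44673232 (Treh, plus strand), chr11:105967798-105967947 (Ace, plus strand) and chr9:98490387-98490536 (Rbp2, plus strand).
Treh: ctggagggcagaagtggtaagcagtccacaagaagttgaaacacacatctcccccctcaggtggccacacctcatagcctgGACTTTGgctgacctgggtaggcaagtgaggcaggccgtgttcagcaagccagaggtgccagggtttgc
Ace: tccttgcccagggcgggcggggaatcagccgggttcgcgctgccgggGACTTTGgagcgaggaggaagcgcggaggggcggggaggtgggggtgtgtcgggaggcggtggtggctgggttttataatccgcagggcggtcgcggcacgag
Rbp2: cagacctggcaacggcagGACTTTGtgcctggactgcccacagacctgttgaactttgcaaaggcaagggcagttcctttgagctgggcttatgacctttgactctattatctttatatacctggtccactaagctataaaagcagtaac
Ace encodes the angiotensin-converting peptidase of the brush border, and Rbp2 carries retinol within enterocytes. Treh stands above with its values, and Rbp2 had 6249.7 CPM at day 4, against 1103 and 2021 CPM at day 1. In windows of 250 bases before to 50 after the start, 5 of 32 windows of enterocyte genes held these letters (15.6%), against 3.8% of the windows of all tested genes and 4.44% of all 32851 promoter windows. The letters TTTATGG of a CDX site were in 2 of the 32 enterocyte windows (6.25%) and 1.65% of those of tested genes. These matches describe letters and not bound sites.

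Genes for vitamin A conversion, detoxification and defence rose alongside. In the retinoid list 14 of 23 tested members were called higher (60.9%, against 13.7% of all genes). The 5 called lower (21.7%) were near the share over all genes (22.5%). Rdh7, a retinol dehydrogenase, had 207 CPM at day 4, against 5.84 and 12.8 CPM at day 1 (adjusted p = 0.00553), and the retinal reductase Dhrs3, which retinoic acid is known to induce, had 79.6 CPM at day 4, against 6.91 and 10.6 CPM at day 1. Aldh1a1, which makes retinoic acid from retinal, had 285 CPM at day 4, against 29.9 and 51.7 CPM at day 1. These enzymes were low in both day-1 libraries and lowest in library 1. Bco2, which splits carotenoids off centre, had 32.6 CPM at day 4, against 2.12 and 4.95 CPM at day 1. Lrat, which stores retinol as ester, fell to 5.49 CPM at day 4, against 9.34 and 9.73 CPM at day 1, but was not called with DESeq2. The receptors moved less: Rxra had 19.7 CPM at day 4, against 11.8 and 12 CPM at day 1 and was called, while Rara and Rxrb were not, since their ratios stayed below 1.5-fold (adjusted p = 0.0488 and 0.0471). Aldh1a2 and Rxrg had 0 UMIs in all 3 libraries.

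The alcohol dehydrogenases, which oxidise retinol and other alcohols, were among the highest rises of all genes. Adh1 had 588 CPM at day 4, against 6.51 and 17.3 CPM at day 1 (adjusted p = 0.00556), Adh6a had 1039 CPM at day 4, against 26.2 and 60.2 CPM at day 1, and Adh4 had 36.5 CPM at day 4, against 0.181 and 0.478 CPM at day 1. In each the day-1 libraries lay more than 2-fold apart, and day 4 stood far above both. Of 26 genes for detoxification 17 were called higher and 3 lower. Ces1f, a carboxylesterase, had 143 CPM at day 4, against 5.78 and 9.69 CPM at day 1, Cyp2b10, a known target of the receptor CAR, had 431 CPM at day 4, against 34.7 and 87.5 CPM at day 1, and Ugt2b5, a glucuronosyltransferase, had 117 CPM at day 4, against 2.47 and 4.87 CPM at day 1. Cyp1a1, the classic target of the aryl hydrocarbon receptor, went the other way and fell to 0.798 CPM at day 4, against 19.6 and 23.3 CPM at day 1 (adjusted p = 0.00318). UMIs of close relatives in the Adh, Ces, Ugt, Reg, Ly6 and Defa families may be assigned uncertainly between members.

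Among the Reg lectins, which are secreted and in part kill bacteria, Reg1 had 626 CPM at day 4, against 8.66 and 17.7 CPM at day 1 (adjusted p = 0.00387), Reg3a had 146 CPM at day 4, against 0.753 and 1.89 CPM at day 1 and Reg3g had 90.8 CPM at day 4, against 13.1 and 21.1 CPM at day 1. Reg4, which enteroendocrine and deep crypt secretory cells make, fell to 19.4 CPM at day 4, against 109.7 and 387 CPM at day 1, so the family was split. Pigr, the carrier of IgA across the epithelium, had 786 CPM at day 4, against 164 and 171 CPM at day 1, and B2m, the light chain of MHC class I, had 400.3 CPM at day 4, against 149 and 170.4 CPM at day 1. Of 16 antigen presentation and interferon genes 5 were called higher (31.25%) and 1 lower (6.25%), against 13.7% and 22.5% of all genes. The gene called lower was Bst2, a tether of viruses at 34.5 CPM, against 94.5 and 81.6 CPM. Leap2, a liver and gut peptide that opposes ghrelin, had 199 CPM at day 4, against 4.65 and 11.7 CPM at day 1.

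Metabolic genes of the enterocyte followed. Of 27 fatty acid oxidation and PPAR target genes 17 were called higher and 3 lower. Acaa1b, a thiolase of peroxisomes, had 63.3 CPM at day 4, against 3.6 and 6.64 CPM at day 1, and Ehhadh had 36.6 CPM at day 4, against 7.77 and 9.47 CPM at day 1. Cpt1a, which admits fatty acids to mitochondria, was at 39.5 CPM at day 4, against 39 and 40.8 CPM at day 1 and was not called. In the urea cycle and arginine list 7 of 14 were called higher (50%) and 3 lower (21.4%), against 13.7% and 22.5% of all genes. Arg2 had 808 CPM at day 4, against 70.4 and 119 CPM at day 1 and Otc, which makes citrulline, had 288 CPM at day 4, against 72.3 and 75.1 CPM at day 1, whereas the polyamine enzymes Odc1 and Srm fell, Srm to 52.3 CPM, against 324 and 272 CPM.

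For metals, 8 of 15 were called higher and 0 lower, among them the manganese exporter Slc30a10 with 51 CPM at day 4, against 3.06 and 6.41 CPM at day 1 and the iron importer Slc11a2 with 68.3 CPM at day 4, against 20.8 and 19.9 CPM at day 1. In the bile acid list 4 of 9 were called higher and 1 lower. Both chains of the basolateral bile acid exporter rose, Slc51b to 55.9 CPM, against 5.87 and 13.1 CPM, while the ileal uptake carrier Slc10a2 fell to 1.27 CPM, against 3.16 and 4.5 CPM.

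**Figure D2:**
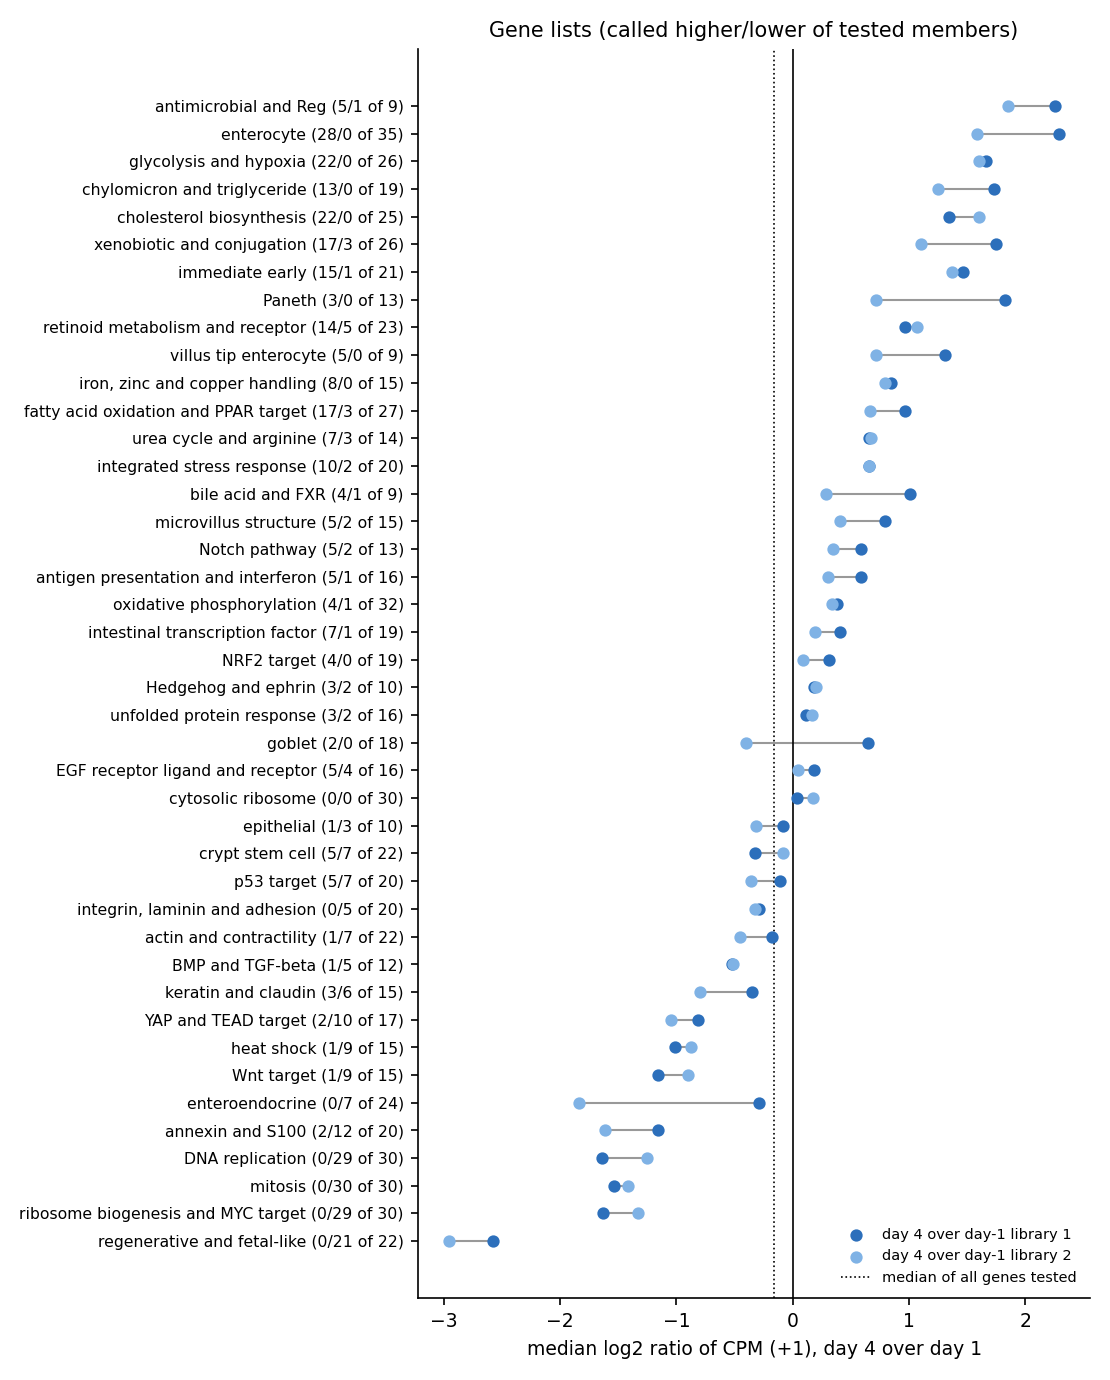
Median log2 ratio of CPM (pseudocount 1) of day 4 over each day-1 library for the gene lists with at least 8 tested members, with the called members in each direction beside the name. Dark points are ratios to library 1, light points to library 2, and the dotted line is the median of all genes tested. The medians run from -2.95 for regenerative genes to 2.29 for enterocyte genes, and the libraries differ most for enteroendocrine, Paneth and goblet genes.

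Crypt stem cell genes did not move as a group. Of 22 crypt stem cell genes 5 were called higher (22.7%, against 13.7% of all genes) and 7 lower (31.8%, against 22.5%). At least 2-fold apart were 4 higher and 4 lower. The list medians were -0.33 and -0.09, against -0.15 and -0.16 for all genes. The genes that rose, described next, are thus part of a split list, and the members called lower are not given in this paragraph. Olfm4, a secreted glycoprotein of crypt base stem cells, had 279 CPM at day 4, against 1.94 and 1.4 CPM at day 1, 144-fold and 199-fold higher (edgeR log2 7.55 ± 0.23 SE, adjusted p = 0.00216), ranked first by the smaller of its ratios (pseudocount 1) among called genes with a mean of at least 10 CPM, predicted genes left out. Isx, given above, had larger ratios without a pseudocount. Lgr5, the R-spondin receptor that defines these cells, had 36.8 CPM at day 4, against 10.4 and 6.14 CPM at day 1 (adjusted p = 0.00784). Smoc2 had 211 CPM at day 4, against 105 and 78.3 CPM at day 1 and Gkn3 had 8.32 CPM at day 4, against 0.648 and 0.398 CPM at day 1. All 4 were above both day-1 libraries. Ascl2, a factor that drives the stem cell state, was at 12.6 CPM at day 4, against 25.9 and 16 CPM at day 1 and was not called (adjusted p = 0.201), and neither was the Wnt feedback gene Axin2 with 27.4 CPM at day 4, against 30 and 22 CPM at day 1.

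Most Wnt targets fell. In the Wnt list 9 of 15 members were called lower and 1 higher, with medians of -1.16 and -0.90. Cyclin D1 (Ccnd1) had 32.4 CPM at day 4, against 129.6 and 108 CPM at day 1, and Ccnd2 had 220.4 CPM at day 4, against 711 and 628 CPM at day 1. The adhesion receptor Cd44 had 12.8 CPM at day 4, against 49.9 and 42.3 CPM at day 1, the ubiquitin ligase Rnf43, which removes Wnt receptors, had 14.7 CPM at day 4, against 38.4 and 31.8 CPM at day 1, and Sox9 had 37.2 CPM at day 4, against 84.9 and 72.3 CPM at day 1. All 5 were below both day-1 libraries, which lay within 1.5-fold of each other. Myc was at 28.6 CPM at day 4, against 47.3 and 36.7 CPM at day 1 and was not called (adjusted p = 0.166). In the Notch list 5 of 13 were called higher (38.5%) and 2 lower (15.4%), against 13.7% and 22.5% of all genes. The Notch target Hes1 had 83.9 CPM at day 4, against 40.1 and 31.4 CPM at day 1 (adjusted p = 0.00755) and the ligand Dll1 had 16.9 CPM at day 4, against 10.8 and 10.5 CPM at day 1, while the receptor Notch2 fell to 2.72 CPM, against 9.29 and 7.82 CPM.

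For secretory cells the day-1 libraries set the limit. No goblet gene was called lower and 2 of 18 were called higher, Muc13 and Slc12a8 (11.1%, against 13.7% of all genes). The list medians were 0.65 against library 1 and -0.40 against library 2. The gel-forming mucin Muc2 was at 13 CPM at day 4, against 12.8 and 47.8 CPM at day 1, so day 4 lay close to library 1 and below library 2 (adjusted p = 0.321). In the Paneth list 3 of 13 were called higher (23.1%, against 13.7%) and 0 lower, and the defining granule genes were not among them. Lysozyme (Lyz1) was at 147 CPM at day 4, against 61.6 and 154 CPM at day 1 and the defensin Defa24 was at 496 CPM at day 4, against 187 and 652 CPM at day 1, both between the day-1 libraries.

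Some gut hormone genes fell, and how far the enteroendocrine list went with them depended on the day-1 library. Of its 24 tested members 7 were called lower (29.2%, against 22.5% of all genes) and 0 higher, and 17 were not called. At least 2-fold lower against each day-1 library were 7 members, against 9.69% of all genes. The medians were -0.29 and -1.83, the first close to that of all genes and the second far below it. The summed level of the list was 472 CPM at day 4, against 1262 and 4347 CPM at day 1. Gcg, which encodes glucagon-like peptides, had 6.54 CPM at day 4, against 163 and 528 CPM at day 1 (adjusted p = 0.0116). Cck, a hormone of the upper gut, had 102 CPM at day 4, against 526 and 1807 CPM at day 1. Neurotensin (Nts) had 0.095 CPM at day 4, against 13.4 and 65.8 CPM at day 1. All 3 were lowest at day 4, and library 2 held more than 3 times the level of library 1. Somatostatin (Sst) had 0 UMIs at day 4, against 9.35 and 39 CPM at day 1, which makes it at least 164-fold and 684-fold lower when 3 UMIs are taken as the limit of the day-4 library. Chgb, at 179 CPM at day 4, against 263 and 1007 CPM at day 1, was not called, and neither was the progenitor factor Neurog3, at 9.37 CPM at day 4, against 4.4 and 11.5 CPM at day 1. Cells with at least 5 UMIs of Chga and Chgb, after each cell was thinned to 5000 UMIs, made up 0.792% of cells at day 4 (95% exact binomial interval 0.552 to 1.10). At day 1 they made up 0.454% (0.288 to 0.681) and 2.32% (1.91 to 2.79), so at that depth day 4 lay between the day-1 libraries. Thinned to 3000 UMIs, 49 of 4628 cells passed at day 4, against 65 of 5322 and 288 of 5040 at day 1, a lower share than in either. Unthinned, at least 3 UMIs of Chga were in 1.09% of cells at day 4, against 2.31% and 7.20% at day 1. Whether day 4 lay below library 1 therefore depended on the depth. Without the cells that passed at 5000 UMIs, and without cells too shallow for that depth, 2 members of the list were called lower and 2 higher. The part of cell number in the hormone genes' change was not tested beyond this.

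Proliferation genes fell with few exceptions. All 30 tested mitosis genes and 29 of 30 DNA replication genes were called lower at day 4 (22.5% of all genes were), and 0 of either list were called higher. The summed level of mitosis genes was 1879 CPM at day 4, against 5633 and 5206 CPM at day 1. The proliferation marker Mki67 had 95.5 CPM at day 4, against 352 and 301 CPM at day 1, 3.68-fold and 3.15-fold lower (edgeR log2 -1.60 ± 0.17 SE, adjusted p = 0.00604). Topoisomerase 2 alpha (Top2a) had 138 CPM at day 4, against 437 and 369 CPM at day 1, and the anaphase activator Cdc20 had 60.7 CPM at day 4, against 211 and 204 CPM at day 1. Birc5, which encodes survivin, had 142 CPM at day 4, against 565 and 494 CPM at day 1. In each of these genes the day-1 libraries lay within 1.5-fold of each other and day 4 stood below both.

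In DNA replication, cyclin E1 (Ccne1), which starts S phase, had 11.1 CPM at day 4, against 66.2 and 52.2 CPM at day 1 (adjusted p = 0.00524). The helicase subunit Mcm5 had 38.3 CPM at day 4, against 109.8 and 85.3 CPM at day 1, and Rrm2, a subunit of the enzyme that makes deoxynucleotides, had 60.5 CPM at day 4, against 229 and 199.5 CPM at day 1. Pcna was the member not called, at 123 CPM at day 4, against 259 and 190.2 CPM at day 1 (adjusted p = 0.0611).

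Upstream bases of 3 mitosis genes are printed because each holds the letters TTTGAA, the CHR element bound by the DREAM and MuvB complexes, and CCAAT, bound by NF-Y, in capitals and on either strand. They are the 150 bases before the RefSeq start on GRCm38.p6, in the gene's direction, at chr4:118437344-118437493 (Cdc20, minus strand), chr7:80294326-80294475 (Prc1, plus strand) and chr7:135716380-135716529 (Mki67, minus strand).
Cdc20: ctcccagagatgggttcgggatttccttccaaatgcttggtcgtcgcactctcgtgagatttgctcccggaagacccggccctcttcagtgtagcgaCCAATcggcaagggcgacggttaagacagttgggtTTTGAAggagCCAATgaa
Prc1: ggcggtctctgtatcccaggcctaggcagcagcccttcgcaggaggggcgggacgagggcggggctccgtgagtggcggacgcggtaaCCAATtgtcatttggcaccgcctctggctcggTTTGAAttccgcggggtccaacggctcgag
Mki67: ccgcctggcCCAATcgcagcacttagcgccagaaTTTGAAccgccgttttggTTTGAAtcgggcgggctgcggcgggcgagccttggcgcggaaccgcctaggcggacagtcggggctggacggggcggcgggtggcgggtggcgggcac
Prc1 bundles the microtubules of the dividing cell and had 45.5 CPM at day 4, against 146 and 150.4 CPM at day 1. Of 26 promoter windows found for 25 mitosis genes, 20 held TTTGAA (76.9%), against 12.2% of the windows of all tested genes and 17.9% of all windows. CCAAT was in 92.3% of mitosis windows, against 38.4% and 37.4%. Both were present in 76.9% of them, against 4.94% and 6.95%, and their letters overlapped in 1 of these windows.

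Upstream bases of 3 replication genes are shown for the letters TTCCCGC of an E2F site, in capitals, on either strand (GCGGGAA in Cdc6). The 150 bases before the start lie at chr10:128015065-128015214 (Prim1, plus strand), chr7:102441545-102441694 (Rrm1, plus strand) and chr11:98908001-98908150 (Cdc6, plus strand).
Prim1: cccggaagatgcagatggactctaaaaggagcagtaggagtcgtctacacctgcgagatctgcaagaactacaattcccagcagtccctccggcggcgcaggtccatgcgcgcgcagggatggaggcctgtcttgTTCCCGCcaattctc
Rrm1: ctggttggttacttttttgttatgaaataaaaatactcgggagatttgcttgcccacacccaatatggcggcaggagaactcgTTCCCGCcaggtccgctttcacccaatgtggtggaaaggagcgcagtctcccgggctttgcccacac
Cdc6: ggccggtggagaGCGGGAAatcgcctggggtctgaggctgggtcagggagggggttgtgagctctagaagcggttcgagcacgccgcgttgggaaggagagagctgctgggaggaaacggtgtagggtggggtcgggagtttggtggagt
Prim1 makes the RNA primers of replication, Rrm1 is the partner of Rrm2, and Cdc6 loads the helicase. Prim1 had 29.3 CPM at day 4, against 105 and 88 CPM at day 1. The letters were in 11 of 29 windows of replication genes (37.9%), against 8.4% of those of tested genes and 4.6% of all windows.

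Genes that build ribosomes fell as widely. In the ribosome biogenesis and MYC target list 29 of 30 were called lower and 0 higher, with medians of -1.63 and -1.33. Nolc1, a nucleolar chaperone, had 77.5 CPM at day 4, against 341 and 259 CPM at day 1, and Rrp12, which exports ribosomal subunits, had 4.96 CPM at day 4, against 31 and 25.6 CPM at day 1. Cad, the first enzyme of pyrimidine synthesis, had 11.7 CPM at day 4, against 63.5 and 45.8 CPM at day 1 (adjusted p = 0.00696). Myc itself, given above, was the member not called. The proteins of the finished ribosome did not move with them: 0 of 30 cytosolic ribosomal protein genes were called in either direction, with list medians of 0.04 and 0.17 and a summed level of 53532 CPM at day 4, against 49336 and 45328 CPM at day 1.

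**Figure D3:**
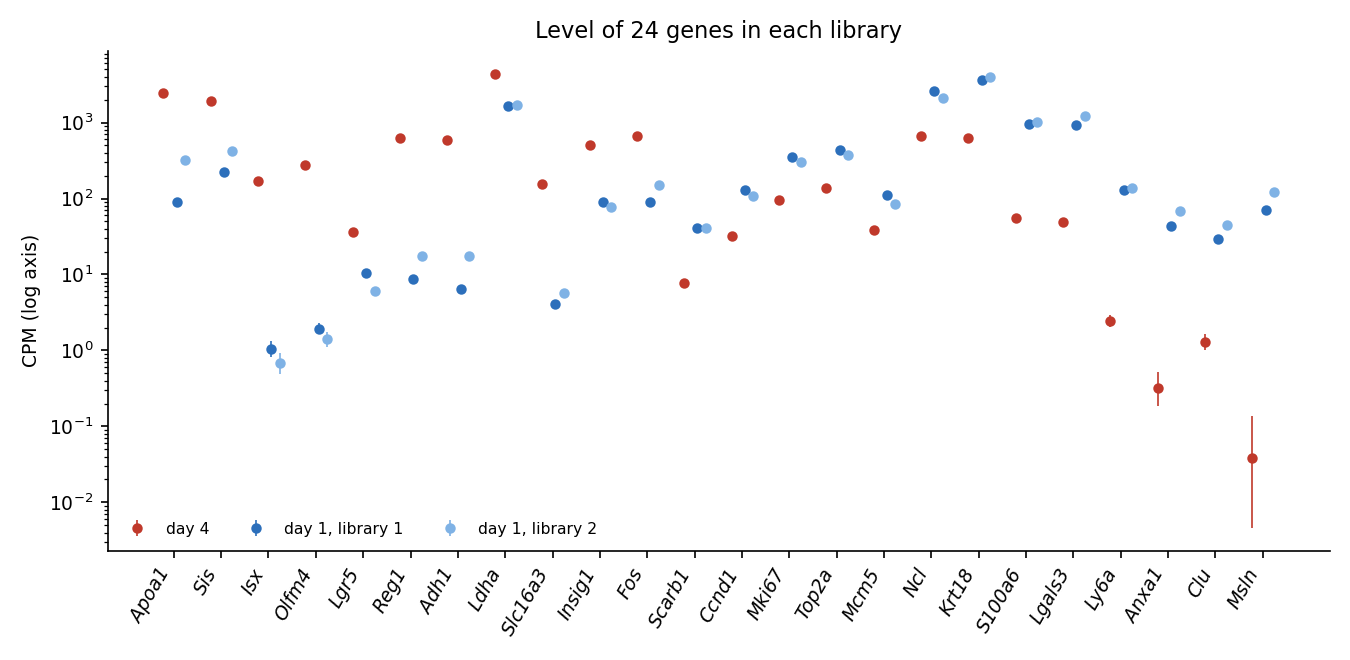
Level of 24 genes in CPM on a log axis, with day 4 in red to the left of day-1 library 1 (dark blue) and library 2 (light blue), and bars giving 95% Poisson intervals of the UMI count, which cover counting error only. Olfm4 stands at 279 CPM at day 4, against 1.94 and 1.4 at day 1, and Ly6a at 2.47, against 129.9 and 138. For every gene shown the day-4 point lies outside the range of the day-1 points.

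Genes of regenerating and fetal-like epithelium had the lowest medians of all lists, -2.58 and -2.95. Of 22 tested members 21 were called lower and 0 higher. Ly6a, a surface protein of repairing colon and gut epithelium in the mouse, had 2.47 CPM at day 4, against 129.9 and 138 CPM at day 1, 52.6-fold and 55.8-fold lower (edgeR log2 -5.59 ± 0.19 SE, adjusted p = 0.00216). Anxa1, an annexin that limits inflammation, had 0.323 CPM at day 4, against 44 and 69.3 CPM at day 1, and Clu, which marks revival stem cells in the mouse, had 1.29 CPM at day 4, against 29.3 and 44.3 CPM at day 1. Mesothelin (Msln) had 2 UMIs in the day-4 library, or 0.038 CPM, against 70.2 and 123 CPM at day 1. The ratio to library 1 was 1845-fold, with a counting interval of 511-fold to 15262-fold. All 4 genes were scarce at day 4 and far higher in both day-1 libraries. Sprr1a, a cornified envelope protein, was the member not called, at 4.47 CPM at day 4, against 5.89 and 24.9 CPM at day 1. Spp1 was too low to be tested.

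Annexins, S100 proteins and the lectin galectin-3 went the same way. Of 20 annexin and S100 genes 12 were called lower and 2 higher. S100a6 had 55.9 CPM at day 4, against 965 and 1022 CPM at day 1 (adjusted p = 0.00303), S100a14 had 16.4 CPM at day 4, against 268 and 311 CPM at day 1 and Anxa3 had 7.7 CPM at day 4, against 111 and 159 CPM at day 1. Galectin-3 (Lgals3) had 48.8 CPM at day 4, against 918 and 1223 CPM at day 1 (adjusted p = 0.00364). In each gene day 4 stood far below both day-1 libraries, which differed from each other by less than 1.5-fold. The serpin Serpinb5 (maspin) had 1.2 CPM at day 4, against 46.2 and 55.4 CPM at day 1.

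Simple keratins fell too, from high levels. Krt8 had 2916 CPM at day 4, against 8603 and 9915 CPM at day 1 (adjusted p = 0.00604) and its partner Krt18 had 619.7 CPM at day 4, against 3689 and 3988 CPM at day 1 (adjusted p = 0.00364), while Krt19 had 2773 CPM at day 4, against 4448 and 5351 CPM at day 1. In the keratin and claudin list 6 of 15 were called lower (40%) and 3 higher (20%), against 22.5% and 13.7% of all genes. Cldn15, which forms sodium-permeable junctions, had 557 CPM at day 4, against 163 and 199 CPM at day 1, and Cldn23 had 52.5 CPM at day 4, against 7.74 and 16.9 CPM at day 1. Cldn7 was at 1229 CPM at day 4, against 1214 and 1245 CPM at day 1 and was not called.

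Most YAP and TEAD targets fell. Of 17 tested members 10 were called lower (58.8%, against 22.5% of all genes) and 2 higher, with medians of -0.82 and -1.04. The matricellular gene Ccn2 had 0.551 CPM at day 4, against 4.07 and 6.48 CPM at day 1, and Ajuba, a scaffold that inhibits the Hippo kinases, had 1.16 CPM at day 4, against 11.2 and 13.7 CPM at day 1. Ccn1, another classic target, went the other way with 24.7 CPM at day 4, against 10.5 and 14 CPM at day 1 (adjusted p = 0.0135). Yap1 itself was at 19.7 CPM at day 4, against 27.7 and 26.1 CPM at day 1 and was not called. The EGF receptor ligand amphiregulin (Areg) had 130.0 CPM at day 4, against 373 and 659 CPM at day 1, betacellulin (Btc) had 19.7 CPM at day 4, against 67.5 and 90.5 CPM at day 1, and the receptors Erbb2 and Erbb3 were higher at day 4, Erbb3 with 64.4 CPM at day 4, against 25.6 and 27.3 CPM at day 1. Egfr was at 7.71 CPM at day 4, against 7.15 and 8.2 CPM at day 1 and was not called. In the EGF receptor list 5 of 16 were called higher (31.25%, against 13.7% of all genes). The 4 called lower (25%) were near the share over all genes (22.5%).

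Among actin and contractility genes 7 of 22 were called lower and 1 higher. Tagln2 had 272 CPM at day 4, against 1338 and 1309 CPM at day 1 and the crosslinker filamin A (Flna) had 2.01 CPM at day 4, against 14.2 and 14.6 CPM at day 1. In the adhesion list 5 of 20 were called lower and 0 higher, among the lower ones the integrin chain Itgb6 with 7.45 CPM at day 4, against 28.9 and 32.6 CPM at day 1. These shares lay near the 22.5% called lower over all genes. Letters of a TEAD site (GGAATG, either strand) were in 53.3% of 15 windows of YAP and TEAD targets, against 12.2% of those of tested genes. Letters of an AP-1 site (TGACTCA) were in 33.3% of 21 windows of 16 regenerative genes, against 3.79%. Over all genes called lower, GGAATG was in 12.6% of windows and TGACTCA in 2.89%, so neither was more than slightly above its share in tested genes.

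Ephrin genes stood in opposite directions. The ligand Efna1 had 156 CPM at day 4, against 12.7 and 16 CPM at day 1 (adjusted p = 0.0031), and its receptor Epha2 fell to 4.77 CPM, against 28.4 and 25.8 CPM. In the Hedgehog and ephrin list 3 of 10 were called higher and 2 lower, and Ihh, the Hedgehog ligand of the gut, was at 55 CPM at day 4, against 50.4 and 67.1 CPM at day 1 and was not called. In the BMP and TGF-beta list 5 of 12 were called lower at equal totals and 2 with TMM-scaled folds, and 1 was called higher. Both scalings called Tgfbr2, which had 32.5 CPM at day 4, against 73.2 and 75.5 CPM at day 1, and Bmp8b, which had 0.456 CPM at day 4, against 4.97 and 5.13 CPM at day 1.

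Glycolysis and hypoxia genes rose as a block. Of 26 tested members 22 were called higher and 0 lower, with medians of 1.66 and 1.60, close against both day-1 libraries. Ldha, which turns pyruvate into lactate, had 4414 CPM at day 4, against 1665 and 1680.1 CPM at day 1 (adjusted p = 0.00409). Slc16a3 (MCT4), which exports lactate, had 156 CPM at day 4, against 4.1 and 5.67 CPM at day 1, 38.2-fold and 27.6-fold higher (edgeR log2 5.17 ± 0.23 SE, adjusted p = 0.00303). Egln3, an oxygen-sensing hydroxylase that HIF induces, had 173 CPM at day 4, against 20.5 and 24.2 CPM at day 1. Bnip3, a receptor for mitophagy and also a HIF target, had 149 CPM at day 4, against 13.2 and 16.5 CPM at day 1. Ankrd37 had 168 CPM at day 4, against 9.71 and 12.3 CPM at day 1, and Car9, a carbonic anhydrase induced by low oxygen, had 309 CPM at day 4, against 45.8 and 45.3 CPM at day 1. In all 6 genes the day-1 libraries lay within 1.5-fold of each other and day 4 well above them. Oxygen was not measured.

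Oxidative phosphorylation moved little. At equal totals 4 of 32 members were called higher and 1 lower, and with TMM-scaled folds 11 higher and 0 lower. Cox4i1, a subunit of cytochrome c oxidase, had 3239.9 CPM at day 4, against 2036 and 2044 CPM at day 1. Cytochrome c (Cycs) fell to 140.5 CPM, against 242 and 226 CPM, at equal totals and was not called with TMM-scaled folds.

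Most cholesterol synthesis genes rose. Of 25 genes 22 were called higher and 0 lower, with medians of 1.35 and 1.60. Insig1, the sterol sensor that SREBP2 induces, had 499 CPM at day 4, against 89.6 and 78.1 CPM at day 1 (adjusted p = 0.00319). Hmgcs1, which makes HMG-CoA, had 544 CPM at day 4, against 191 and 184 CPM at day 1, Fdps, which makes farnesyl diphosphate, had 396 CPM at day 4, against 99.6 and 84.1 CPM at day 1, and Lss, which closes the sterol rings, had 81.3 CPM at day 4, against 22.5 and 17 CPM at day 1. All 4 were above both day-1 libraries. Scarb1, which takes up cholesterol from lipoproteins, fell as given above.

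Stress programs differed from each other. In the integrated stress response list 10 of 20 were called higher and 2 lower. Ddit3 (CHOP) had 47.5 CPM at day 4, against 7.21 and 12.8 CPM at day 1 (adjusted p = 0.00836), Trib3, a pseudokinase that it induces, had 29.5 CPM at day 4, against 3.4 and 6.45 CPM at day 1, and Stc2 had 35.6 CPM at day 4, against 5.81 and 4.58 CPM at day 1. The letters TTGCATC, part of the element that ATF4 binds, were in 5 of 21 windows of this list (23.8%), against 1.97% of those of tested genes. In the unfolded protein response list 3 of 16 were called higher and 2 lower, with TMM-scaled folds 4 and 0, and the chaperone Hspa5 (BiP) was at 944 CPM at day 4, against 865 and 836 CPM at day 1 and was not called.

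Cytosolic heat shock genes fell, 9 of 15 called lower and 1 higher. Hsp90aa1 had 216 CPM at day 4, against 750.5 and 609 CPM at day 1 (adjusted p = 0.00751) and Hsph1 had 41.7 CPM at day 4, against 136 and 109 CPM at day 1. The member that rose was Dnajb4, with 23 CPM at day 4, against 10.4 and 9.71 CPM at day 1. For p53 targets 5 of 20 were called higher (25%) and 7 lower (35%), against 13.7% and 22.5% of all genes. The cell cycle inhibitor Cdkn1a (p21) had 379.9 CPM at day 4, against 152 and 231 CPM at day 1 and the BH3 protein Pmaip1 (Noxa) had 75.9 CPM at day 4, against 16.5 and 23 CPM at day 1, while Phlda3, which restrains AKT, had 7.03 CPM at day 4, against 61.6 and 62.4 CPM at day 1 and Ccng1 had 42.4 CPM at day 4, against 138 and 138 CPM at day 1. Of 19 NRF2 targets 4 were called higher (21.1%, against 13.7% of all genes) and 0 lower. Hmox1 was at 8.27 CPM at day 4, against 6.46 and 8.37 CPM at day 1 and was not called.

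Immediate early genes, which cells switch on within minutes of a stimulus and also during tissue dissociation, rose in 15 of 21 members and fell in 1. Fos had 659.5 CPM at day 4, against 90.1 and 149 CPM at day 1 (adjusted p = 0.00663), Jun had 512 CPM at day 4, against 65.2 and 98.5 CPM at day 1 and Egr1 had 179 CPM at day 4, against 25.9 and 33.7 CPM at day 1. Egr2 had 9.67 CPM at day 4, against 0.0904 and 0.302 CPM at day 1. The member that fell was Fosl1 (Fra-1), with 0.817 CPM at day 4, against 7.15 and 8.88 CPM at day 1 (adjusted p = 0.00505). Every library was dissociated and sorted, and whether that handling took part in the rise was not tested.

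Shares of cells were compared after each cell was thinned to 5000 UMIs, which left 4419 cells at day 4 and 5061 and 4694 at day 1, and left out 368, 515 and 610 shallower cells. Isx had a UMI in 56% of cells at day 4, against 0.316% and 0.405% at day 1. In cells with Chga and Chgb, which should lack it, the share was 5.71% at day 4 (35 cells). Apoa1 had a UMI in 60.4% of cells, against 12.4% and 24.3%, and Slc16a3 in 47.2%, against 1.74% and 2.94%. All 3 genes had a UMI in more cells at day 4 than in either day-1 library. In the cells with Chga and Chgb, which should lack Apoa1, it had a UMI in 17.1% at day 4, against 10.1% in day-1 library 2 (109 cells), below its share over all cells in both. Slc16a3 had a UMI in 60% of them at day 4, above its share over all cells, so they give no background for it.

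Olfm4 was seen in 15.3% of cells at day 4, against 0.711% and 0.66% at day 1, and Lgr5 in 11.8%, against 4.76% and 2.68%. Ascl2, also a stem cell gene, stood the other way, in 4.87% of cells at day 4, against 10% and 6.5% at day 1. The stem cell markers thus did not move together. In cells rich in absorptive genes, which should lack stem cell genes, Olfm4 was at 2.65% at day 4, against 0.208% and 0.398%, and Lgr5 at 1.7%, against 1.4% and 0.753%. The tenth of day-4 cells with most of it held 94.1% of all Olfm4 UMIs. Olfm4 was thus seen in a minority of cells and Isx in more cells than not. Reg1 lay between, in 20.5% of cells, against 2.02% and 3.26%.

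Mki67 was seen in 19.5% of cells at day 4, against 72.2% and 58.7% at day 1, and Top2a in 19.9%, against 71.9% and 59.9%. The median cell held 1 UMI of the mitosis list at day 4, against 26 and 22 at day 1. At day 4 the tenth of cells with most of them held 61.5% of the mitosis UMIs, against 20.4% and 23.4% at day 1, so mitosis UMIs were concentrated in fewer cells. In the cells with Chga and Chgb, Mki67 had a UMI in 2.86% at day 4, against 65.2% (23 cells) and 16.5% (109 cells) at day 1. Top2a had a UMI in 11.4% of them at day 4, against 56.5% and 19.3%. In day-1 library 1 these shares came near those over all cells, so they give no background there. For ribosome biogenesis genes the median cell held 12 UMIs, against 62 and 51, and for glycolysis and hypoxia genes it held 99 UMIs, against 33 and 36.

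Lgals3 was seen in 17.7% of cells at day 4, against 86.7% and 84.4% at day 1, and S100a6 in 14.2%, against 79.8% and 75%. Ly6a was seen in 0.679%, against 29.4% and 27.2%, and Msln in 1 of 4419 cells at day 4, against 20.3% and 27.1%. In the cells with Chga and Chgb, S100a6 had a UMI in 5.71% at day 4, against 56.5% and 33% at day 1, and Ly6a in 17.1% at day 4, against 17.4% and 15.6%. No cell type in these libraries was known to lack Lgals3, S100a6 or Ly6a, so the shares are of cells with a UMI and not of cells that express the gene.

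**Figure D4:**
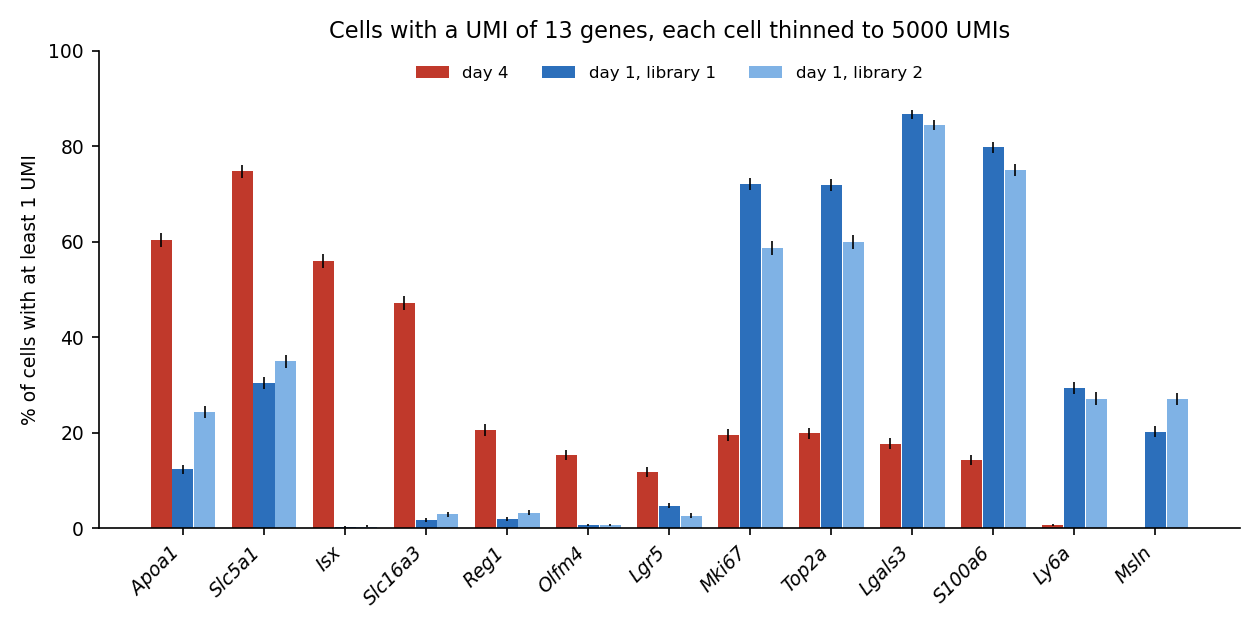
Percent of cells with at least 1 UMI of 13 genes after each cell was thinned to 5000 UMIs, for day 4 (red, left), day-1 library 1 (dark blue) and library 2 (light blue), with 95% exact binomial intervals that cover counting error only. Isx stands at 56% at day 4 and below 1% at day 1, and Lgals3 at 17.7% at day 4, against 86.7% and 84.4%. Of the stem cell markers Olfm4 and Lgr5 are shown, and Ascl2, which was seen in fewer cells at day 4, is not.

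Cells over a minimum of marker UMIs were counted next. Cells with at least 20 UMIs of 7 absorptive marker genes (Apoa1, Apoa4, Apoc3, Fabp1, Fabp2, Rbp2 and Sis) made up 71.8% at day 4, against 38.1% and 48.1% at day 1, with 319, 1704 and 1501 cells within 2-fold of that minimum. Many day-1 cells thus lay near it, and since the marker genes themselves rose, more absorptive cells and more of this RNA per cell cannot be told apart. Goblet-marker cells made up 3.15%, against 1.84% and 5.26%, and Paneth-marker cells 2.10%, against 1.38% and 4.45%. Cells over none of the 4 minimums made up 24.3% (1075 cells) at day 4, against 59.8% (3028) and 45.2% (2120) at day 1. Sums over these remaining cells were compared in the same way, an alternative added after the first results were seen. The minimum removed a larger share of cells at day 4 and rested on genes that rose, so unlike sets of cells are compared. Values of enterocyte, stem cell, Wnt and proliferation genes in them can follow from that choice alone and are given as a description of these cells, not as a test.

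In sums over the remaining cells 1447 of all 12403 tested genes were called higher and 904 lower. The median gene lay at a log2 ratio of 0.047 and 0.046 against the day-1 libraries. List counts and medians in these cells, here and below, are to be read against these values. Among the remaining cells 1 of 30 mitosis genes and 1 of 30 replication genes were called lower at day 4, and 0 of either list higher. The choice of cells alone can give these counts, so nothing about proliferation is concluded from them. Mki67 was at 279 CPM at day 4, against 375 and 349 CPM at day 1. Of the crypt stem cell genes 12 of 22 were called higher and 0 lower. Olfm4 was at 1019 CPM at day 4, against 2.77 and 2.34 CPM at day 1, Lgr5 at 127 CPM at day 4, against 14.1 and 9.43 CPM at day 1 and Axin2 at 91.6 CPM at day 4, against 34.6 and 26.5 CPM at day 1. Wnt targets had 5 members called higher and 1 lower, and Ccnd1, at 93.6 CPM at day 4, against 153 and 161 CPM at day 1, was the member still called lower.

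The regenerative, annexin, glycolysis, cholesterol, immediate early and integrated stress response lists kept the direction of their medians in those cells, while 10 of 43 lists did not, among them the bile acid, antimicrobial, NRF2 and M cell lists. Of the regenerative genes 20 of 22 were called lower, with medians of -2.22 and -2.96. Ly6a was at 5.67 CPM at day 4, against 167 and 212 CPM at day 1 and S100a6 at 29.9 CPM at day 4, against 1019 and 1176 CPM at day 1. Of the annexin and S100 genes 15 of 20 were called lower. Glycolysis and hypoxia genes had 23 of 26 called higher, cholesterol genes 20 of 25, immediate early genes 13 of 21 and integrated stress response genes 13 of 20. Ribosome biogenesis was intermediate, with 12 of 30 called lower. Isx was at 146 CPM at day 4, against 1.35 and 0.943 CPM at day 1.

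**Figure D5:**
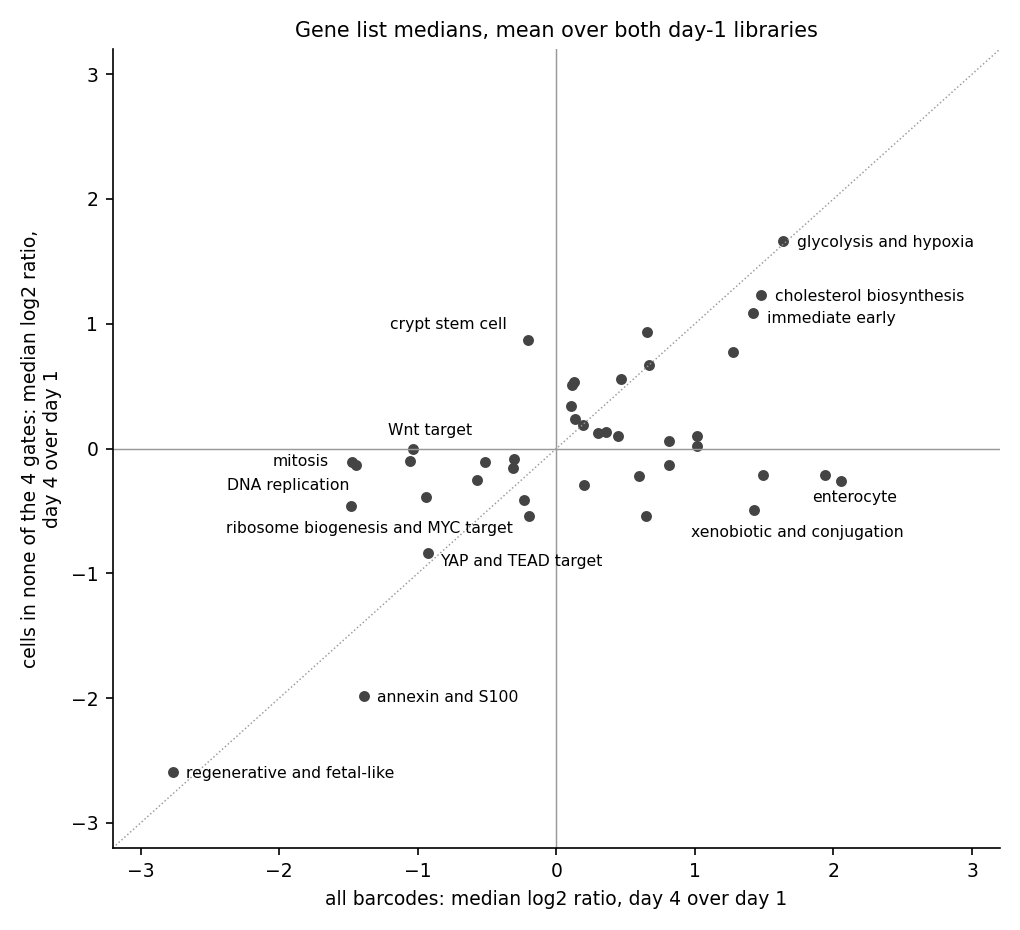
Median log2 ratio of day 4 over day 1 (mean over both day-1 libraries) of the gene lists with at least 8 tested members in all barcodes (horizontal axis) and in cells over none of the 4 marker minimums (vertical axis), with the dotted line marking equal values. Regenerative, annexin, glycolysis and cholesterol lists lie near the dotted line, mitosis and DNA replication lists near 0 on the vertical axis, and crypt stem cell genes above it. The vertical values compare unlike sets of cells and are a description.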

How the data were processed

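Cells of vehicle organoids were profiled with a droplet assay for 3-prime ends of RNA. The deposited values are raw counts of UMIs per gene and cell, not normalized by the authors, in matrices of 55335 genes. The submitters' processing notes name bcl2fastq 2.17, Cell Ranger 3.1.0 and GRCm38. No filter on cells was applied, since no deposited barcode had fewer than 1001 genes or a mitochondrial share above 9.996%. Doublets were left in; removing the highest Scrublet scores (scanpy 1.11.5) at 0.8% per 1000 barcodes was an alternative that took 183 cells at day 4 and 249 and 225 at day 1, because Scrublet's own threshold marked 55, 0 and 2.

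UMIs were summed over all barcodes of a library and scaled to its total (CPM). Sums of the 3 libraries were tested with edgeR 4.0.16 (TMM, quasi-likelihood F test, Benjamini-Hochberg adjustment) in R 4.3.3, over 12403 genes whose mean of the day-4 CPM and the day-1 mean CPM was at least 1. The lone day-4 library is thereby assumed to vary like the day-1 pair. Called genes also needed a 1.5-fold difference in CPM (pseudocount 1) against each day-1 library. DESeq2 1.42.0 was the alternative tool. Tested on simulated data for this comparison over 12403 genes, edgeR recovered 46.7% of 2-fold and 97.7% of 4-fold changes, with 6 false calls per simulation. Over 3 simulations 300 changes of each size were placed, far fewer than the genes called here. Whether the day-4 library varied as assumed was not tested. The simulation also gave all genes the same spread between libraries (edgeR common dispersion 0.0231), which real genes need not share. These rates therefore hold under both assumptions only, and the number of false calls in the real libraries is unknown. Folds of single genes are ratios of CPM without a pseudocount, and a gene at 0 UMIs was set to 3 UMIs per library.

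The day-1 libraries differed beyond sampling noise (chi-square of 122 per degree of freedom over 8085 genes) and were counted as 2 samples. The members, the 49 gene lists and the markers were chosen with earlier results of these data known. Named genes were a list of 108 key genes, up to 6 called members per list with the largest ratios, every member of lists with at most 12 tested members, the 20 highest and 20 lowest called genes by ratio, and the 10 that differed most between the day-1 libraries. Printed promoter windows are the called list members with the list's letters and the largest ratios; Ace, Rrm1 and Cdc6 are named for this reason alone. A few of these named genes are not reported here. Promoter sequences are RefSeq's. Intervals cover counting error only.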

Additional observations from a re-analysis of the deposited data

How the results depend on the processing

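The counts of called genes, 1698 higher and 2786 lower at day 4, stayed within 1.5 times under other size factors, DESeq2, other filters and doublet removal. DESeq2 called 1578 higher and 2417 lower, of which 1572 and 2379 were shared with edgeR. Other size factors entered the test only, and the fold minimum stayed on CPM at equal totals. With a 2-fold minimum 861 were called higher and 1199 lower. Without a fold minimum 2752 were called higher and 2825 lower, and with the fold on TMM-scaled CPM 2156 higher and 2171 lower. In these last settings the numbers higher and lower were nearly equal, so the excess of genes called lower depended on the fold minimum and its scaling. In cells over none of the 4 marker minimums, a setting chosen after seeing the data, 904 were called lower. Of genes at least 2-fold apart, 864 higher and 1202 lower, a pseudocount of 5 left 565 and 720, and cells over none of the minimums left 565 and 323. Without a day-1 library the 2-fold counts ranged from 908 to 1199 higher and from 1388 to 1681 lower, with no test possible.

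Of 43 lists 42 kept the direction of their median under every planned setting. The goblet median turned to -0.19 with equal weight per cell, -0.40 without day-1 library 1 (0.65 without library 2) and -0.16 at a mean of at least 10 CPM. Without cells rich in Chga and Chgb the enteroendocrine median turned to 0.068. In cells over none of the minimums 10 medians turned: enterocyte -0.21, microvillus -0.22, chylomicron -0.21, detoxification -0.49, fatty acid oxidation -0.14, NRF2 -0.29, antimicrobial -0.26, bile acid -0.54, M cell 0.18 and crypt stem cell 0.87. For the absorptive lists, leaving out cells rich in absorptive genes lowers them by construction; for the others the cause was not tested.

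A chosen part of the markers, 17 in number, was compared across depths, and all kept their order between day 4 and each day-1 library at 3000 UMIs and unthinned. Among the markers left out, Chga and Muc2 changed order against library 1. Chga was in 0.928% of cells at day 4, against 0.889% in library 1, at 5000 UMIs, and in 1.42%, against 3.84%, unthinned. Muc2 was in 2.04%, against 1.44%, at 5000 UMIs and in 2.44%, against 2.65%, unthinned. No paired analysis was possible, because day 4 had 1 library and the labels do not say which mouse each library came from. A single library at day 4 and 2 at day 1 limit every value above, and the change of medium lies between the days.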

Other observations

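Several of the genes with the largest differences belonged to no list. Ggt1, which breaks down glutathione outside the cell, had 57.1 CPM at day 4, against 0.196 and 0.478 CPM at day 1. G6pc, which releases glucose in liver, kidney and gut, had 47.8 CPM at day 4, against 0.331 and 1.31 CPM at day 1. Both were scarce at day 1. Aoc1, the diamine oxidase that degrades histamine, had 145 CPM at day 4, against 4.44 and 5.32 CPM at day 1, and Aldoc, an aldolase best known from brain, had 111 CPM at day 4, against 3.86 and 5.08 CPM at day 1. G0s2, an inhibitor of fat breakdown, had 22.6 CPM at day 4, against 0.542 and 0.493 CPM at day 1, with the day-1 libraries close together. The flavin monooxygenase Fmo5 had 293 CPM at day 4, against 5 and 16.4 CPM at day 1, and the dipeptidase Dpep1 had 68 CPM at day 4, against 1.37 and 3.57 CPM at day 1. Among the genes called lower, Tinagl1, a matrix protein, had 7.18 CPM at day 4, against 82.6 and 86.5 CPM at day 1, Mboat1, which acylates phospholipids, had 7.83 CPM at day 4, against 98.3 and 105 CPM at day 1, Ildr1, a protein of cell junctions, had 1.6 CPM at day 4, against 27 and 32.4 CPM at day 1, and Agr3, a disulfide isomerase, had 2.22 CPM at day 4, against 39.3 and 29.2 CPM at day 1.

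Rare cell types were at the edge of detection. Of the tuft cell genes 2 could be tested and 1 was called higher, Rgs13 with 1.75 CPM at day 4, against 0.407 and 0.525 CPM at day 1, a call that DESeq2 did not make. Dclk1, Trpm5 and Pou2f3, which define tuft cells, stayed below 1 CPM in all 3 libraries. Of the M cell genes 5 were tested, 2 called higher and 1 lower. The chemokine Ccl20, which attracts lymphocytes to lymphoid follicles, had 39.3 CPM at day 4, against 21.2 and 21.1 CPM at day 1. Itgam, an integrin of myeloid cells, had 3.36 CPM at day 4, against 0.783 and 0.796 CPM at day 1 and was called, while the other tested immune gene, Cd68, was at 1.25 CPM at day 4, against 1.14 and 1.29 CPM at day 1 and was not.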
